A study of Mus musculus with 8 samples.

Results

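The chromatin around 10 genes that mark T cells and divide them into the CD4 and CD8 lineages was examined in regulatory T (Treg) cells with and without Flcn. The genes were Cd3e, Cd3d, Cd3g, Cd247, Cd4, Cd8a, Cd8b1, Zbtb7b, Cd5 and Cd2. Each accessible region (peak) was assigned by position to 1 protein-coding gene of the RefSeq annotation of GRCm38.p6, on which mm10 is based. This was the gene whose span lay closest, up to a distance of 50 kb, and where spans tied the closest gene end decided. By this rule 64 of the 57199 peaks belonged to the 10 genes, 38 of them inside a gene and 26 outside, and together they covered 27516 bp. Closeness says nothing of which gene an interval regulates.

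The assay was ATAC-seq, which uses a transposase to cut and tag DNA that is not packed away. The cells were splenic CD4+ Foxp3-YFP+ Treg cells with a CD45.2+ CD45.1- surface phenotype, which selects 1 donor by its form of the leukocyte antigen CD45. They came from mixed bone marrow chimeras, animals whose marrow is rebuilt from more than 1 donor. In the Flcn KO group the sorted cells came from Foxp3Cre Flcn fl/fl mixed chimeras, so that Cre is driven by Foxp3, and in the WT group from WT mixed chimeras, with 4 libraries labelled as biological replicates in each group. Cells of both groups were selected by the Foxp3-YFP reporter. The labels do not give the age or sex of the animals, what the other donor of each chimera was, or whether animals were pooled.

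T cells recognise antigen through the T cell receptor, which signals through the CD3 chains gamma, delta and epsilon and the zeta chain encoded by Cd247. In the thymus a precursor that carries both CD4 and CD8 keeps one of these coreceptors. CD4 binds MHC class II, and CD8, a dimer of the chains encoded by Cd8a and Cd8b1, binds MHC class I. Zbtb7b encodes ThPOK, the zinc finger factor that directs cells to the CD4 lineage, while Runx3 directs them to the CD8 lineage. CD5 dampens T cell receptor signals, and CD2 is an adhesion receptor that binds CD48 in the mouse.

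The overlap of promoter windows with accessible regions shows which of these windows lay in open chromatin. The RefSeq promoter table (GRCm38.p6) held 7 of the 10 genes, with 2 starts for Zbtb7b, and the 250 bases before each start are considered here. The window of Cd3g overlapped an accessible region by 240 bp, that of Cd5 by 232 bp, that of Cd3e by 224 bp, that of Cd247 by 185 bp, that of Cd3d by 139 bp and that of the outer Zbtb7b start by 84 bp. The Cd8a window and that of the inner Zbtb7b start overlapped none. The peak that overlapped the outer Zbtb7b window lay 167 bp from the start itself and did not cover it. The windows below are those of the Cd3g, Cd3e, Cd5 and Zbtb7b starts, and that of Cd8a, the coreceptor gene with no peak at its start. Each is written 5′ to 3′ along the gene's strand, with matches to an ETS motif (AGGAAG) or a RUNX motif (TGTGGT) on either strand in capitals.
Cd3g, chr9:44980432-44980681, minus strand: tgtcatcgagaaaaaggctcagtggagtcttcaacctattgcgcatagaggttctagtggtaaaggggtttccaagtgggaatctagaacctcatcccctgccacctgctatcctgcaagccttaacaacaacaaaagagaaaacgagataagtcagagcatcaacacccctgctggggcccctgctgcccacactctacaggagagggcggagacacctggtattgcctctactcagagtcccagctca
Cd3e, chr9:45009612-45009861, minus strand: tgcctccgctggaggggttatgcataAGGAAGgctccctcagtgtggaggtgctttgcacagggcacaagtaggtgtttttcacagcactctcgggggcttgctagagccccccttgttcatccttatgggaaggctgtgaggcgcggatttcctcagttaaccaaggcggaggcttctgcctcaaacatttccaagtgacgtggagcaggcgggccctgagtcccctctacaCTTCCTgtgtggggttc
Cd5, chr19:10738975-10739224, minus strand: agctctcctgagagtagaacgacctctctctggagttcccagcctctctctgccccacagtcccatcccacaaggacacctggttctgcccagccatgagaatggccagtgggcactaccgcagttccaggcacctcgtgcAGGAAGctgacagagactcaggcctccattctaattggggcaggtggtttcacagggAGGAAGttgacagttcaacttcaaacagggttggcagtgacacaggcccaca
Zbtb7b outer start, chr3:89393379-89393628, minus strand: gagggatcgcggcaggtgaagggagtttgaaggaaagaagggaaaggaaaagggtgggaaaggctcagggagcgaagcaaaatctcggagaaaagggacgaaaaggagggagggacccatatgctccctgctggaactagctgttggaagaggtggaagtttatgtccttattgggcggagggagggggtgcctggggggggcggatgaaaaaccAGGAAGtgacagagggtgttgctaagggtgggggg
Zbtb7b inner start, chr3:89387672-89387921, minus strand: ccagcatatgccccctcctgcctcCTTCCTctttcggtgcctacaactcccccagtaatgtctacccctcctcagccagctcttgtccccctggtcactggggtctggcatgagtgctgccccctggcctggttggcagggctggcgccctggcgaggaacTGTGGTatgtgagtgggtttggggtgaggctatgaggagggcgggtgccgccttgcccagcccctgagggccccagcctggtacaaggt
Cd8a, chr6:71373177-71373426, plus strand: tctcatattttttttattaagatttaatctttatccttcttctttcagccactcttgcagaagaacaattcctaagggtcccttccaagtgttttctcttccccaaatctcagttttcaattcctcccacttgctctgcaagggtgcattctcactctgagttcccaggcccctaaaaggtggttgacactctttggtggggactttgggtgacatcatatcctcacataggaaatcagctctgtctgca

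The ETS letters occurred in 6 of the 8 windows, against 28.5% of all 21263 promoter windows of the table. Cd3e and Cd5 held 2 matches each, Cd247, Cd3d and each Zbtb7b window held 1, and Cd3g and Cd8a held none. The RUNX letters occurred in 1 of the 8 windows, that of the inner Zbtb7b start, against 12.4% of all windows. An E-box (CANNTG) was present in 8 of 8 windows and in 62.8% of all windows. A GATA motif (AGATAA) was present in the Cd3g window and in 8.81% of all windows, and a TCF/LEF motif (CTTTGA) in the Cd3d window and in 12.7% of all windows. Both strands were searched, no match overlapped another, and a match describes letters and not a bound site.

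Levels are given as CPM, counts scaled to the same library size. Genes are compared by CPM per kb of their summed peak length, over all peaks assigned to a gene. Cd4 had 59.5 CPM per kb in Flcn KO cells and 67.5 CPM per kb in WT cells, which placed it at the 75.9th percentile of all genes with a tested sum. Cd3g had 63.6 CPM per kb in Flcn KO cells and 51.0 in WT cells, and Cd2 had 58.1 in Flcn KO cells and 55.4 in WT cells. Cd8a was the least accessible of the 10 genes in both groups, with 10.6 CPM per kb in Flcn KO cells and 11.2 in WT cells, at the 8.58th percentile. The level at Cd4 describes the sort, since CD4 was part of the gate.

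**Figure D1:**
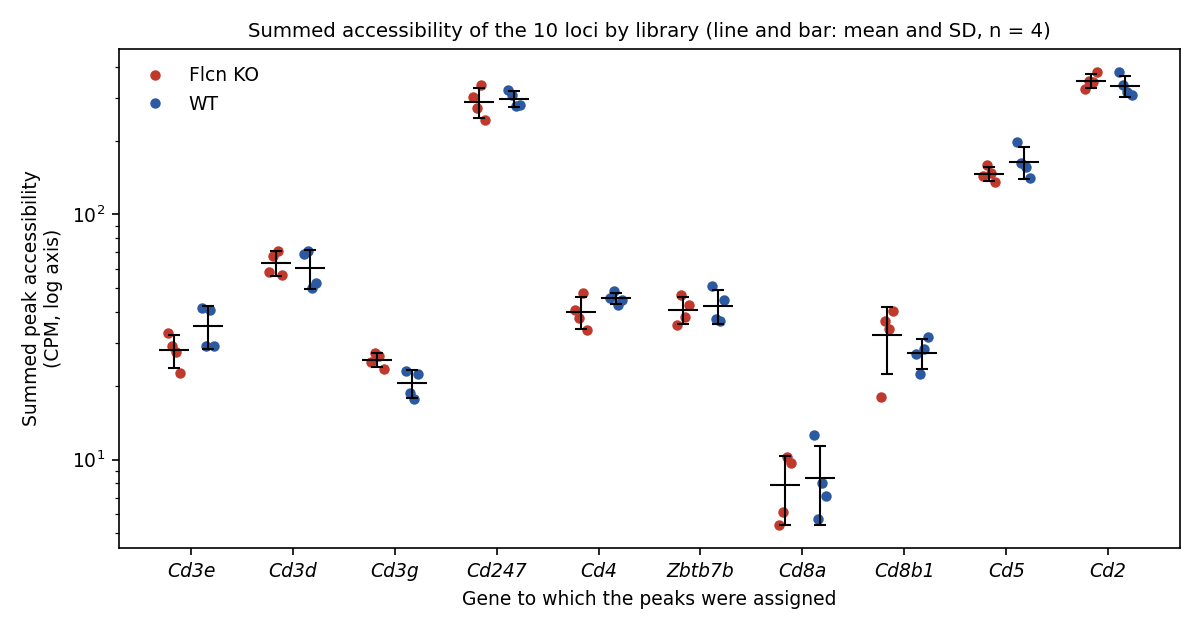
Summed accessibility of all peaks assigned to each of the 10 genes, as CPM on a log axis. Points are the 4 Flcn KO and 4 WT libraries, with the mean and SD of each group, and the groups overlap at every gene but Cd3g.

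In Flcn KO cells the order by CPM per kb ran from Cd3g through Cd4, Cd2, Cd5, Cd3d, Cd247, Zbtb7b, Cd8b1 and Cd3e to Cd8a. In WT cells it ran from Cd4 through Cd2, Cd3g, Cd5, Cd3d, Cd247, Zbtb7b, Cd8b1 and Cd3e to Cd8a, so that the groups differed only in the first 3 places. Most neighbours in the order overlapped between libraries. The exceptions were Cd2 above Cd5 in Flcn KO cells, Cd4 above Cd2 in WT cells, and Cd8b1 above Cd3e in both groups, where the library ranges were separate.

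The comparison of Flcn KO with WT asks whether loss of Flcn in Treg cells alters accessibility at these loci. No peak of the 10 genes passed the test. Of the 64 peaks, 59 passed the low-count filter, and 0 of 59 were called by edgeR's quasi-likelihood test at an adjusted p below 0.05, where 2.37% of all 47859 tested peaks were called, 1.35% higher and 1.02% lower in Flcn KO cells. DESeq2 and limma-voom also called 0. At an unadjusted p below 0.05, 6 of the 59 peaks stood out in edgeR (10.2%), 1 higher and 5 lower in Flcn KO cells, against 12.9% of all tested peaks, 6.87% higher and 5.99% lower. The 5 peaks without a test, 3 of Cd3e and 2 of Cd8b1, had mean levels of at most 2.61 CPM in either group.

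The log2 fold changes of the 59 peaks, Flcn KO over WT, ranged from -0.91 to 0.47, with a median of -0.10, against a median of 0.00 over all tested peaks. Of these, 26 were positive and 33 negative. For 43 of the 59 peaks (72.9%) the 95% interval of the fold change lay within 2-fold in either direction, against 63.9% of all tested peaks. For the other peaks the interval reached beyond 2-fold, so a change of that size lies within their error. The libraries of the groups did not overlap at 5 of the 59 peaks, 3 with Flcn KO below and 2 with Flcn KO above WT, where 7.59% of all tested peaks did not overlap, 3.56% with Flcn KO below and 4.03% with Flcn KO above.

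Summed over all peaks of a gene, 0 of the 10 genes were called by edgeR, where 1.88% of the 13486 tested genes were called, and at an unadjusted p below 0.05 the count was also 0, against 12.6% of all genes. DESeq2 and limma-voom called 0 of the 10. Libraries did not overlap at 1 of the 10 genes, Cd3g, with Flcn KO above WT, where 7.32% of all genes did not overlap in either direction and 3.6% with Flcn KO above. The gene-level log2 fold changes ranged from -0.31 at Cd3e to 0.32 at Cd3g, with a median of -0.05 against -0.00 over all genes. Every one of the 10 intervals lay within 2-fold in either direction, as did 88.1% of all genes' intervals. In bulk libraries, fewer open cells and less opening per cell cannot be told apart.

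**Figure D2:**
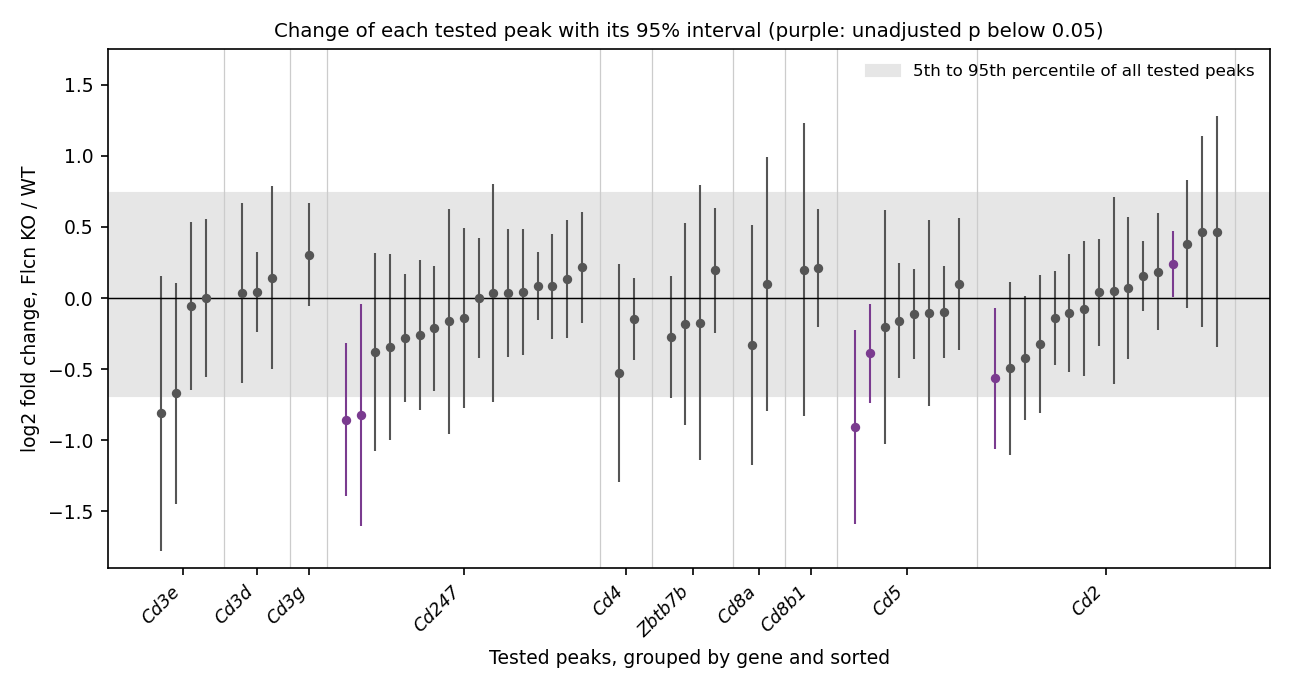
Log2 fold change of Flcn KO over WT for each of the 59 tested peaks, grouped by gene, with 95% intervals from edgeR and the 5th to 95th percentile of all tested peaks shaded. The 6 purple peaks had an unadjusted p below 0.05, and none of the 59 was called.

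The CD3 genes Cd3e, Cd3d and Cd3g lie side by side on chromosome 9, and each had a peak over its RefSeq start. Cd3g, which encodes the gamma chain, had 1 peak, chr9:44980271-44980671, at the 82.6th percentile of all peaks by CPM per kb. It measured 23.5, 26.2, 24.4 and 22.1 CPM in the Flcn KO libraries, against 22.0, 17.4, 16.8 and 21.6 CPM in the WT libraries. All Flcn KO libraries lay above all WT libraries, and the gap between the nearest was small. The log2 fold change was 0.30 ± 0.18 (SE), with an edgeR adjusted p of 0.505.

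Cd3d, the delta chain gene, had 3 peaks. The tallest, chr9:44985661-44986914, near the gene's higher-coordinate end, measured 47.4 ± 6.72 CPM in Flcn KO cells and 46.1 ± 8.15 CPM in WT cells (SD, n = 4 each), with a log2 fold change of 0.04. The peak over the start, chr9:44981647-44981846, was weaker, at 6.28 CPM in Flcn KO cells and 5.64 CPM in WT cells. Per length, the Cd3g peak, at 54.2 CPM per kb over all libraries, stood above the tall Cd3d peak, at 37.3 CPM per kb.

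Cd3e, the epsilon chain gene, had 7 peaks and the lowest per-length level of the CD3 genes, 11.6 CPM per kb in Flcn KO cells and 14.5 in WT cells. Its start peak, chr9:45009190-45009835, measured 14.1, 8.55, 11.4 and 7.62 CPM in the Flcn KO libraries, against 17.9, 8.92, 7.90 and 7.38 CPM in the WT libraries. The WT libraries spread more than the Flcn KO libraries here, and the log2 fold change was 0.00 ± 0.27. Summed over the gene, Cd3e measured 33.0, 29.1, 27.5 and 22.6 CPM in Flcn KO libraries and 41.6, 29.2, 40.9 and 29.0 CPM in WT libraries. The groups overlapped, and the log2 fold change of -0.31 ± 0.16 had an edgeR adjusted p of 0.423 and a 95% interval of -0.64 to 0.01.

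Cd247 encodes the zeta chain, which carries most of the receptor's activation motifs, and had the most peaks of the 10 genes, 17, all inside or overlapping its span. The sum over the gene was 289 ± 39.97 CPM in Flcn KO cells and 297 ± 21.2 CPM in WT cells (SD, n = 4 each), with a log2 fold change of -0.04 ± 0.09. Its tallest peak, chr1:165844438-165845679, measured 102, 79.1, 83.5 and 71.2 CPM in Flcn KO libraries, against 97.8, 73.8, 69.6 and 77.7 CPM in WT libraries. The groups overlapped there, with a log2 fold change of 0.08. At the start peak, chr1:165788496-165788883, Flcn KO libraries measured 27.0, 17.6, 27.8 and 20.6 CPM and WT libraries 24.1, 23.2, 19.9 and 21.2 CPM, with a log2 fold change of 0.08 and an edgeR adjusted p of 0.909.

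Of all member peaks, the lowest adjusted p belonged to an interval inside Cd247, chr1:165801729-165802087, 13048 bp from the RefSeq start. It measured 8.21, 9.08, 7.46 and 3.81 CPM in the Flcn KO libraries, against 15.2, 15.6, 12.2 and 9.84 CPM in the WT libraries. Every Flcn KO library lay below every WT library. The log2 fold change was -0.86 ± 0.27, with an unadjusted p of 0.00268 and an adjusted p of 0.0816 in edgeR, so the peak did not pass the test. A peak further along the gene, chr1:165822056-165822393, measured 5.08, 2.14, 3.98 and 1.52 CPM in Flcn KO libraries and 4.15, 8.48, 5.61 and 5.41 CPM in WT libraries, with a log2 fold change of -0.82 and an edgeR adjusted p of 0.353. Their neighbours did not share this size: chr1:165803116-165803563, the next peak after the first, had 15.4 CPM in Flcn KO cells and 15.2 CPM in WT cells.

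**Figure D3:**
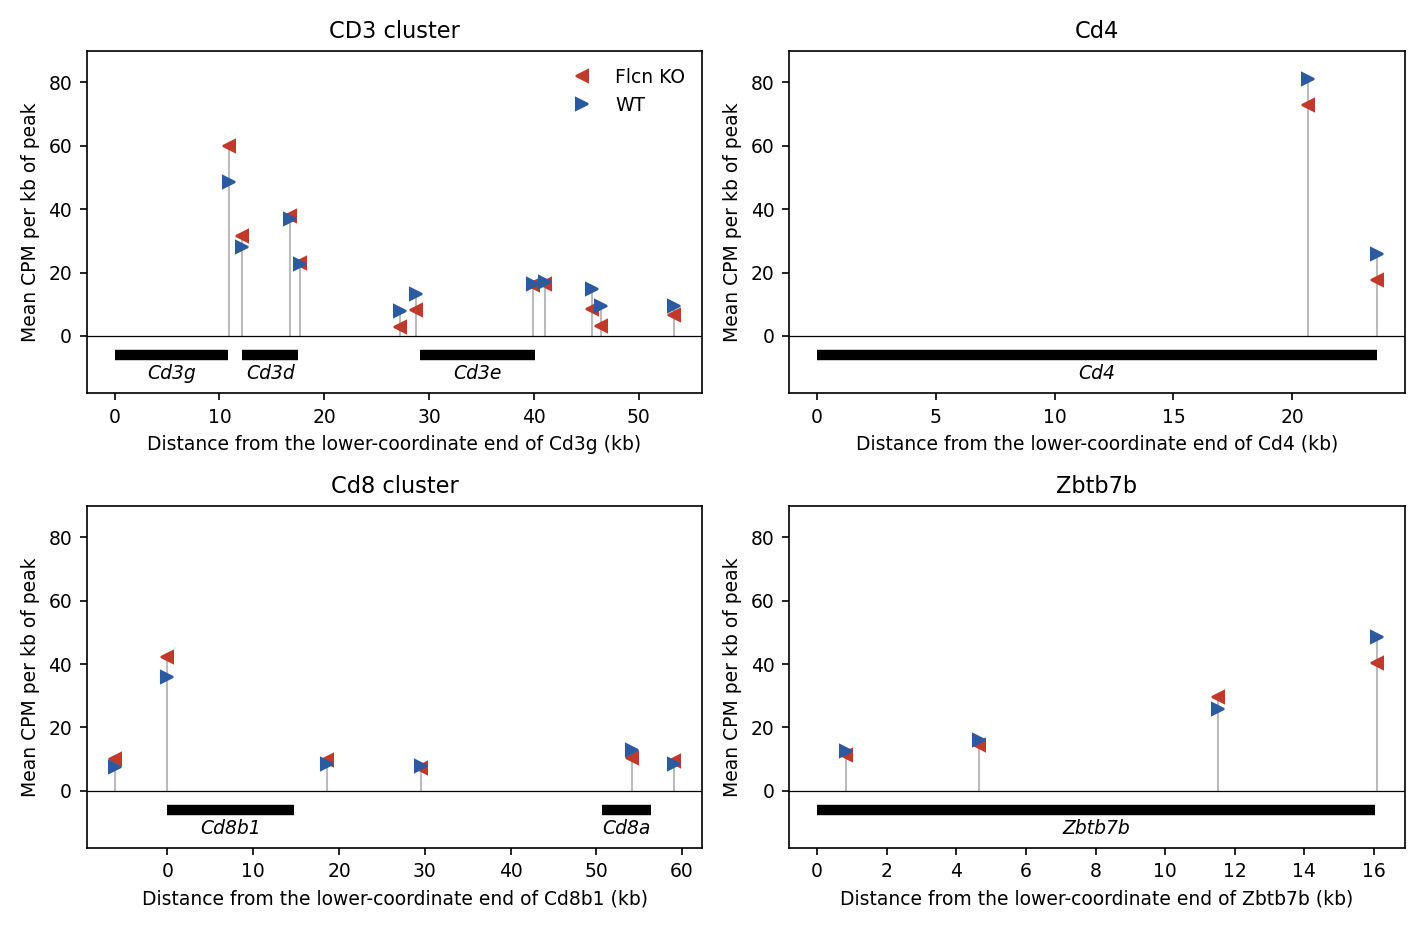
Mean accessibility of each assigned peak, as CPM per kb of peak, along the CD3 cluster, Cd4, the Cd8 cluster and Zbtb7b, with distance in kb from the lower-coordinate end of the first gene. Triangles are means of the 4 Flcn KO and 4 WT libraries and black bars are gene spans. The tallest peaks stand inside Cd4 and at Cd3g. Lower ones stand at the higher-coordinate end of Zbtb7b, the lower-coordinate end of Cd8b1 and near the higher-coordinate end of Cd3d, while both Cd8a peaks are low.

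At Cd4 on chromosome 6, accessibility lay almost wholly in 1 interval inside the gene, chr6:124885121-124885588, 2659 bp from the higher-coordinate end and at the 89.0th percentile of all peaks by CPM per kb. It measured 34.8, 33.7, 38.3 and 29.7 CPM in Flcn KO libraries, against 37.4, 41.5, 34.2 and 38.9 CPM in WT libraries. The groups overlapped, and the log2 fold change was -0.15 ± 0.14, with an edgeR adjusted p of 0.745. The other Cd4 peak, chr6:124888146-124888351, lies over the gene's higher-coordinate end and was weak, at 3.52, 2.67, 5.97 and 2.29 CPM in Flcn KO libraries and 6.23, 4.02, 6.63 and 4.43 CPM in WT libraries. Its log2 fold change was -0.53 ± 0.38, with an edgeR adjusted p of 0.618.

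The stretch between Cd4 and Lag3, a gene for an inhibitory receptor that binds MHC class II, is known to hold a Cd4 enhancer, and its peaks went to Lag3 by the distance rule. The first of these, chr6:124900444-124900738, measured 7.31 ± 2.76 CPM in Flcn KO cells and 4.42 ± 1.31 CPM in WT cells (SD, n = 4 each), with a log2 fold change of 0.69 and an edgeR adjusted p of 0.408. The next peaks were taller and had log2 fold changes of -0.03 and 0.07. Of these, chr6:124900938-124901329 measured 10.1 CPM in Flcn KO cells and 10.4 CPM in WT cells. The peak chr6:124903589-124903924 measured 12.2 CPM in Flcn KO cells and 12.0 CPM in WT cells. Which of these peaks, if any, is the enhancer was not tested. At the gene level Lag3 had a log2 fold change of 0.13, with an edgeR adjusted p of 0.771.

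Zbtb7b, on chromosome 3, had 4 peaks, all inside or over its span. The peak over its higher-coordinate end, chr3:89393545-89393903, 167 bp from the outer start, measured 12.1, 16.6, 13.9 and 15.2 CPM in Flcn KO libraries, against 17.9, 14.3, 14.8 and 22.6 CPM in WT libraries. Another peak, chr3:89388917-89389437, 1246 bp from the inner start, measured 15.6, 14.4, 15.4 and 16.002 CPM in Flcn KO libraries, against 17.02, 10.5, 13.8 and 12.3 CPM in WT libraries. These lie on opposite sides of zero, with log2 fold changes of -0.27 ± 0.21 and 0.19 ± 0.22 and edgeR adjusted p-values of 0.660 and 0.791, and the groups overlapped at both. Summed, Zbtb7b measured 35.5, 47.1, 38.3 and 42.7 CPM in Flcn KO libraries and 50.9, 37.3, 36.9 and 44.8 CPM in WT libraries. Its gene-level log2 fold change was -0.06, with a 95% interval of -0.35 to 0.22.

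The Cd8 genes, also on chromosome 6, were not uniformly closed. Cd8a, which encodes the alpha chain, had no peak over its RefSeq start. Its 2 peaks were weak, and the one inside the gene, chr6:71376742-71377119, measured 1.96, 3.21, 5.97 and 4.57 CPM in Flcn KO libraries, against 7.06, 1.78, 5.61 and 4.92 CPM in WT libraries. It lay at the 31.5th percentile by CPM per kb, with a log2 fold change of -0.33 ± 0.42. The other, chr6:71381709-71382075, beyond the gene, lay at the 18.9th percentile, with 3.46 CPM in Flcn KO cells and 3.14 CPM in WT cells.

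Cd8b1, the beta chain gene, had 1 well-covered peak over its lower-coordinate end, chr6:71322412-71322988, at the 74.6th percentile of all peaks by CPM per kb. It measured 14.1, 28.3, 23.9 and 31.2 CPM in Flcn KO libraries, against 20.8, 16.3, 21.7 and 24.1 CPM in WT libraries. Flcn KO replicate 1 was the lowest of all 8 libraries and the other 3 Flcn KO libraries lay near or above the WT libraries, with a log2 fold change of 0.21 ± 0.20 and an edgeR adjusted p of 0.745. The other 3 Cd8b1 peaks, including 2 between Cd8b1 and Cd8a where Cd8 enhancers are known, were at most 9.90 CPM per kb in Flcn KO cells and 8.38 CPM per kb in WT cells.

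The ratio of Cd4 to each Cd8 gene in CPM per kb was above 1 in every library. For Cd8a it was 8.33, 6.83, 5.18 and 3.87 in Flcn KO libraries and 4.00, 9.40, 5.90 and 6.95 in WT libraries, and the ranges overlapped. For Cd8b1 it was 4.19, 1.89, 2.60 and 1.54 in Flcn KO libraries and 3.11, 4.03, 2.77 and 2.61 in WT libraries, where the ranges also overlapped. The order at Cd8b1 depends on the scaling by length. By summed CPM, Flcn KO replicate 4 had more at Cd8b1 (40.3 CPM) than at Cd4 (33.9 CPM), and every other library had more at Cd4. The gene-level log2 fold change was -0.17 ± 0.13 at Cd4 (95% interval -0.44 to 0.09) and -0.12 ± 0.31 at Cd8a (95% interval -0.76 to 0.51). Cd8a rested on few counts, and its interval was the widest of the 10 genes.

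Cd5, on chromosome 19, had 8 peaks, of which the one over its start, chr19:10738775-10739206, reached the 89.1th percentile by CPM per kb. It measured 28.0, 33.7, 38.3 and 29.0 CPM in Flcn KO libraries, against 41.1, 33.0, 28.0 and 36.9 CPM in WT libraries, with overlapping groups and a log2 fold change of -0.11. Outside the gene, chr19:10747364-10748111 measured 22.7, 20.8, 20.9 and 23.6 CPM in Flcn KO libraries, against 29.5, 24.5, 36.2 and 25.1 CPM in WT libraries. Every Flcn KO library lay below every WT library there, with a log2 fold change of -0.39 ± 0.17 and an edgeR adjusted p of 0.306.

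A more distant Cd5 peak, chr19:10757086-10757472, had the most negative log2 fold change of all 59, -0.91 ± 0.34, at an edgeR adjusted p of 0.182. It measured 6.65, 3.74, 2.98 and 5.33 CPM in Flcn KO libraries and 12.0, 11.2, 4.08 and 7.87 CPM in WT libraries, and the groups overlapped through WT replicate 3. Over the whole gene Cd5 measured 146 ± 10.1 CPM in Flcn KO cells and 164 ± 24.2 CPM in WT cells (SD, n = 4 each), with a log2 fold change of -0.17 and an edgeR adjusted p of 0.482. The neighbouring gene on the lower-coordinate side, Vps37c, had a log2 fold change of -0.47, with an edgeR adjusted p of 0.127. On the higher-coordinate side, where the distant peak lies, Cd6 had a log2 fold change of 0.02, with an edgeR adjusted p of 0.966.

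Cd2, on chromosome 3, had 16 peaks, which summed to 351 ± 23.2 CPM in Flcn KO cells and 335 ± 32.9 CPM in WT cells (SD, n = 4 each), with a log2 fold change of 0.06 ± 0.08. Its most accessible interval per length, chr3:101274766-101275228, lies 680 bp outside the lower-coordinate end, at the 96.1th percentile of all peaks. It measured 63.7, 66.0, 76.1 and 68.6 CPM in Flcn KO libraries, against 78.5, 58.4, 53.8 and 55.1 CPM in WT libraries, with a log2 fold change of 0.15. Inside the gene, chr3:101280264-101280757 measured 67.1, 66.3, 68.6 and 87.6 CPM in Flcn KO libraries, against 66.4, 59.8, 58.1 and 59.5 CPM in WT libraries. The groups overlapped, and the log2 fold change of 0.24 ± 0.12 had an edgeR adjusted p of 0.373.

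Other Cd2 peaks lay the other way. The interval chr3:101286402-101286714, 1225 bp from the higher-coordinate end, measured 7.04, 12.3, 7.46 and 11.8 CPM in Flcn KO libraries and 11.8, 15.6, 13.0 and 15.7 CPM in WT libraries, with a log2 fold change of -0.57 and an edgeR adjusted p of 0.296. Beside it, chr3:101285833-101286140 measured 11.7, 10.95, 12.9 and 10.3 CPM in Flcn KO libraries, below 15.6, 16.1, 15.0 and 15.3 CPM in WT libraries, with a log2 fold change of -0.42 and an edgeR adjusted p of 0.409. The far peak chr3:101238773-101239154 measured 5.47, 5.88, 5.97 and 7.62 CPM in Flcn KO libraries, above 4.57, 4.46, 4.84 and 3.94 CPM in WT libraries, with an edgeR adjusted p of 0.611. Cd2 thus held intervals with positive and with negative values, none called, and a sum near zero.

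Genes around the pathway were taken as 3 lists. Of 234 tested peaks of 18 lineage-choice regulators, 3 were higher in Flcn KO cells, 1 was lower and 230 did not pass, where 1.35% of all tested peaks were higher and 1.02% lower. Before adjustment, 44 peaks had a p below 0.05, 35 of them higher and 9 lower (18.8%), against 6.87% higher and 5.99% lower (12.9%) of all tested peaks. The median log2 fold change was 0.10, against 0.00 over all peaks. In edgeR, a peak of Zfp281 rose (log2 fold change 0.65, adjusted p 0.00938), as did one of Runx1, the RUNX factor active in early thymocytes (1.73, adjusted p 0.0362). The Runx1 peak was weak, at 5.01 CPM in Flcn KO cells and 1.47 CPM in WT cells. Summed over its 27 peaks, Runx1 had a log2 fold change of 0.08, with an edgeR adjusted p of 0.755. A peak of Tox, a factor needed for CD4 lineage development, fell (-1.18, adjusted p 0.0291) and another rose (0.44, adjusted p 0.0370). Runx3 and Gata3 had no called peak.

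Of 214 tested peaks of 21 genes of receptor-proximal signalling, 1 was higher, 3 were lower and 210 did not pass, against the same 1.35% higher and 1.02% lower of all tested peaks. Before adjustment, 30 peaks had a p below 0.05, 16 of them higher and 14 lower (14.02%), against 12.9% of all tested peaks, and the median log2 fold change was -0.00. In edgeR, a peak of Ptprc, which encodes CD45, the phosphatase whose allelic forms were used in the sort, fell (-1.77, adjusted p 0.000223), as did one of Ptpn22, a phosphatase that restrains receptor signals (-1.23, adjusted p 0.00815). Sla, an adaptor that lowers receptor levels, had a peak that fell (-1.54, adjusted p 0.0480) and one that rose (0.63, adjusted p 0.0322). The Ptprc peak lay 10153 bp outside the gene. Summed over all its peaks, Ptprc had a log2 fold change of 0.16, with an edgeR adjusted p of 0.515. The sums of Ptpn22 and Sla had log2 fold changes of 0.13 and -0.00, with edgeR adjusted p-values of 0.616 and 0.993. None of these sums was called. Among 97 tested peaks of 11 other surface coreceptor genes 0 were called by edgeR, where 2.37% of all tested peaks were called. Before adjustment, 11 peaks had a p below 0.05, 9 of them higher and 2 lower (11.3%), against 12.9% of all tested peaks, 6.87% higher and 5.99% lower, and the median log2 fold change was 0.13.

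The identity of the sorted cells was checked on marker lists. A sum grows with the number of genes and peaks in its list, so sums compare the groups and not the lists. Treg markers had peaks at 6 of 7 genes, with a summed level of 1387 to 1624 CPM in Flcn KO libraries and 1313 to 1454 CPM in WT libraries, and no peak at Tnfrsf4. Of their 73 tested peaks edgeR called 3 higher and 1 lower in Flcn KO cells, where 1.35% of all tested peaks were higher and 1.02% lower. The 9 T cell markers all had peaks and summed to 1399 to 1627 CPM in Flcn KO libraries and 1369 to 1688 CPM in WT libraries. The CD4 markers Cd4 and Zbtb7b summed to 76.4 to 86.2 CPM in Flcn KO libraries and 79.7 to 96.6 CPM in WT libraries. The 7 CD8 markers summed to 320 to 408 CPM in Flcn KO libraries and 328 to 402 CPM in WT libraries. B cell markers summed to 76.8 to 104 CPM in Flcn KO libraries and 68.7 to 103 CPM in WT libraries, with no peak at Cd79b or Ms4a1. Myeloid markers summed to 46.3 to 61.8 CPM in Flcn KO libraries and 56.9 to 75.6 CPM in WT libraries, with no peak at Csf1r, Lyz2 or Mpo. NK markers summed to 274 to 372 CPM in Flcn KO libraries and 247 to 286 CPM in WT libraries, and all 4 genes had a peak. Most of this lay at Klrb1c, with 282 CPM in Flcn KO cells and 234 CPM in WT cells. Ncr1 and Klrd1 had at most 5.17 CPM in either group. Libraries of the groups did not overlap for the sum of the erythroid markers. Among single genes, 7.32% of all those tested did not overlap, and no such share was worked out for sums over a list. The erythroid markers summed to 50.1 to 60.4 CPM in Flcn KO libraries and 32.6 to 41.6 CPM in WT libraries, with no peak at Hba-a1. Of these, Gata1 measured 33.0 ± 7.02 CPM in Flcn KO cells and 18.3 ± 1.10 CPM in WT cells, while Klf1 measured 14.6 ± 1.898 CPM in Flcn KO cells and 13.3 ± 2.99 CPM in WT cells, and Epor 5.82 ± 3.78 CPM in Flcn KO cells and 5.73 ± 2.20 CPM in WT cells (SD, n = 4 each). At the gene level edgeR called Gata1 (log2 fold change 0.86, adjusted p 0.00397) and Klre1 (0.64, adjusted p 0.0387) higher in Flcn KO cells. Cd22 was called lower (-1.23, adjusted p 0.0494), and 1.88% of all tested genes were called. Of 13 tested NK marker peaks edgeR called 1 higher and 1 lower, of 11 B cell peaks 1 lower and of 4 erythroid peaks 1 higher. The T cell, CD4, CD8 and myeloid lists had no called peak. The part of other cells in the member values was not tested.

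**Figure D4:**
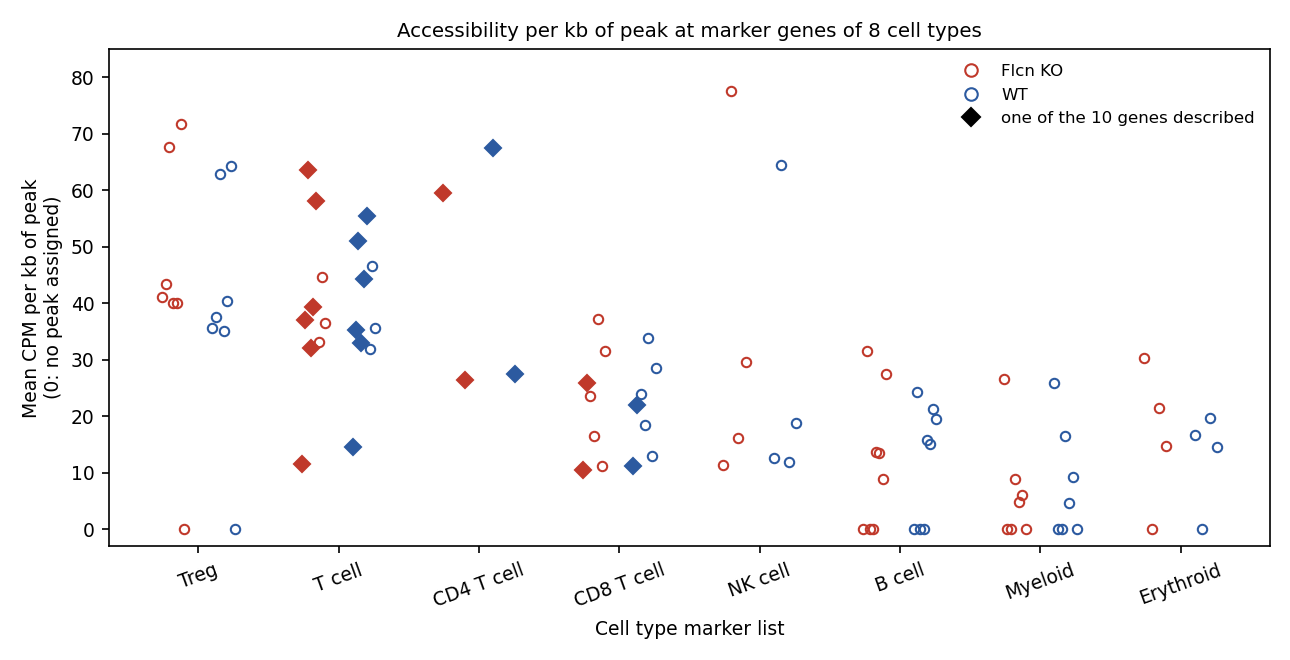
Mean accessibility of each marker gene, as CPM per kb of its peaks, in Flcn KO and WT cells, by cell type list. Each point is a gene, diamonds are the genes described here, and 0 means that no peak was assigned. The lowest T cell marker is Cd3e, at 11.6 in Flcn KO and 14.5 in WT cells.

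The libraries held between 2723344 and 5111728 counts in the Flcn KO group and between 3986331 and 4914976 in the WT group, and the member peaks took 0.0901% to 0.0984% of them in Flcn KO and 0.0913% to 0.109% in WT libraries. The targeted gene Flcn had 4 peaks, with a gene-level sum of 28.1 ± 8.14 CPM in Flcn KO cells and 26.9 ± 6.29 CPM in WT cells (SD, n = 4 each). This sum mixes peaks with lower and with higher means in Flcn KO cells. The tested peaks chr11:59808986-59809376 and chr11:59809585-59809977 had log2 fold changes of -0.28 and -0.57, with edgeR adjusted p-values of 0.679 and 0.463. At 2 Flcn peaks that failed the filter, chr11:59798675-59798950 and chr11:59799302-59799641, Flcn KO libraries measured 1.07 to 6.10 CPM and 0.391 to 8.001 CPM, against at most 0.446 CPM and 0.510 CPM in WT libraries. The labels do not say which exons are floxed, so peaks outside the deleted stretch check nothing.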

How the data were processed

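ATAC-seq libraries of sorted splenic Treg cells, 4 Flcn KO and 4 WT, were grouped by their labels. The authors deposited raw counts, unnormalized, for 57199 shared peaks in mm10. The submitters' processing notes name bedtools 2.25.0, MACS2 2.1.1, SAMtools 1.9, Picard 2.9.4, BWA 0.7.16 and Trimmomatic 0.36. Neither the order of these tools, nor duplicate removal, nor a transposase shift, nor pooling for peak calls is stated in the labels. Even numbers made up 88.7% to 92.7% of each library's counts, so counts may include both ends of a pair. No pair of libraries within a group matched closely enough to be a copy, and pairs across groups were not compared. Start positions, 0-based as deposited, were shifted to 1-based.

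RefSeq gene spans of GRCm38.p6 carry no strand, exons or introns, so exonic and intronic peaks were not told apart. A gene lay within 50 kb of 89.5% of peaks. Low counts were removed with filterByExpr (minimum count 10), libraries were scaled by TMM, and genotype was the only term of a robust quasi-likelihood fit in edgeR 4.0.16 (R 4.3.3). This was done across 47859 peaks and, separately, across the peak sums of 13486 genes, each with Benjamini-Hochberg adjustment. The procedure was run on simulated counts that had the same dispersion at every peak and changes only at well-covered peaks. That run does not bear on weak peaks or small changes. Each SE is the log2 fold change divided by the square root of F, and 95% intervals use that SE. CPM are relative to the TMM-scaled library, separately for peaks and gene sums. Alternatives used DESeq2 1.42.0, limma 3.58.1, other scalings, filters and distances, a replicate block and each library left out. The peaks named are, for each gene, the tallest by CPM and by CPM per kb, the one of lowest p, any with an unadjusted p below 0.05 and some at a gene end or start. The selection by CPM per kb and by unadjusted p, and further peaks inside and outside genes, were added after their values were seen. The 10 genes and the lists were chosen with earlier results of these data known. The labels state no pairing of libraries by replicate number, so the main fit used none. A marker gene of the lists is not reported here. A GC correction needs the genome sequence and was not run.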

Additional observations from a re-analysis of the deposited data

Results flagged for a closer look

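In 3 of the 76 groups of 4 libraries that were examined, 1 library lay far from the other 3 of its group, and chance flags about 1 in 20. The Cd2 peak chr3:101280264-101280757 measured 87.6 CPM in Flcn KO replicate 4, against 66.3 to 68.6 CPM in the other Flcn KO libraries. The Cd3e start peak chr9:45009190-45009835 measured 17.9 CPM in WT replicate 1, against 7.38 to 8.92 CPM in the other WT libraries. The Zbtb7b peak chr3:89378347-89378629 measured 7.48 CPM in Flcn KO replicate 2, against 1.49 to 2.29 CPM in the other Flcn KO libraries.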

How the results depend on the processing

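The count of 0 called genes among the 10 was the same under every alternative run. The count of 0 called peaks changed under 1 alternative: with the replicate number as a block, 1 peak was called, the Cd247 peak chr1:165801729-165802087 (log2 fold change -0.89, edgeR adjusted p 0.0434). Over all alternatives its adjusted p ran from 0.0434 to 0.261. Libraries with the same number did not deviate together across peaks (correlations of 0.08, -0.05, 0.06 and 0.05), and the labels state no pairing. Such correlations cannot exclude a pairing or a shared batch, because they mix noise of all peaks. With this block 1375 of all peaks and 322 of all genes were called, against 1133 and 253 without it. With each library left out in turn, 665 to 1797 of all peaks were called (665 without WT replicate 2, 1797 without Flcn KO replicate 1), and 163 to 565 of all genes (163 without Flcn KO replicate 3, 168 without WT replicate 2, 565 without Flcn KO replicate 1).

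Of the log2 fold changes under alternatives, 646 kept direction and side of the threshold, 1 passed it and 32 changed sign. The Cd3e start peak, at 0.00, had -0.00477 with DESeq2 size factors, -0.000800 with library size alone, -0.0155 with loess offsets, -0.00177 with no filter and -0.00867 in DESeq2, and -0.19 to 0.39 with a library left out. The other sign changes occurred when a library was left out. The ranges were -0.0144 to 0.15 for Cd3d, -0.12 to 0.0377 for Cd247, -0.29 to 0.15 for Cd8a and -0.14 to 0.0372 for Zbtb7b at the gene level. For peaks they were -0.0303 to 0.33 (Cd2, chr3:101287834), -0.0299 to 0.20 (Cd247, chr1:165844438), -0.0531 to 0.11 (Cd3d, chr9:44985661), -0.22 to 0.0736 (Cd3e, chr9:45010406), -0.0647 to 0.42 (Cd8a, chr6:71381709), -0.0194 to 0.50 (Cd8b1, chr6:71341288), -1.03 to 0.0878 (Zbtb7b, chr3:89378347) and -0.34 to 0.21 (Zbtb7b, chr3:89382097). The cause of these changes was not tested. Counts may include both ends of a read pair. Each SE comes from the quasi-likelihood fit, which estimates the spread between libraries with information shared across all tested peaks or genes.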
